A study of Mus musculus with 12 samples.

Results

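The Hox gene clusters were read here as the listed ChIP-seq regions that overlap 4 windows of the mouse build mm9. The windows are Hoxa at chr6:52100001-52230000 (130 kb), Hoxb at chr11:96040001-96240000 (200 kb), Hoxc at chr15:102740001-102880000 (140 kb) and Hoxd at chr2:74480001-74610000 (130 kb). They stand for 38 named genes, 10 in Hoxa, 10 in Hoxb, 9 in Hoxc and 9 in Hoxd. Of 313566 regions in 11 lists, 90 overlapped a window, 34 at Hoxa, 33 at Hoxb, 12 at Hoxc and 11 at Hoxd. The libraries come from cell lines of mouse pancreatic cancer, grown in F12/DMEM with EGF and not treated. Genotype is given as KDM6A-KO or KDM6A-WT, and sex is given in the titles. Every label, also those of the WT genotype, traces the line to a Kdm6a-null tumour, so KO and WT are used as the genotype field gives them. KDM6A and MLL4 (labelled KMT2D in the antibody field) were listed in the female KO and female WT lines. H3K4me1 was listed in KO and WT lines of both sexes, and H3K4me3, H3K27ac and H3K27me3 in the female WT line alone. Each group held 1 library, so no difference between lines has a replicate check and none was tested. The labels do not say whether a line is 1 clone. The KDM6A list of the line labelled KO held 5961 regions and that of the line labelled WT 2847, so these lists do not separate the lines as the genotype label would. KO and WT below stand for lines so labelled.

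Hox genes encode homeodomain transcription factors that give cells their position along the body axis. The genes of a cluster lie in the order of their domains of action, from the anterior genes, such as Hoxa2 and Hoxb1 of the hindbrain, to the posterior ones, such as Hoxa13 and Hoxd13 of the limb and genital tubercle and Hoxb13 of the prostate. Silent clusters are held by Polycomb, whose PRC2 complex writes H3K27me3. KDM6A removes that mark, and the MLL3 and MLL4 complexes it belongs to write H3K4me1, the mark of enhancers. H3K4me3 marks promoters, and H3K27ac marks active promoters and enhancers. In the gene order of RefSeq for GRCm38, the Hoxa genes run from Hoxa2 at the low end to Hoxa13, while Hoxb, Hoxc and Hoxd begin at the low end with Hoxb13, Hoxc13 and Hoxd13. No gene was placed at a region, because the gene table describes another build than the lists. The usual pancreatic and epithelial marker genes were not looked up for the same reason.

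Hox promoters are rich in CpG, the dinucleotide of CpG islands, to which both H3K4me3 and Polycomb are drawn. RefSeq promoters (GRCm38.p6) were at hand for 22 of the 38 genes, 24 promoters of 300 bases in all. The dinucleotide CG, which reads the same on both strands, was counted in each. Its median was 14.5 in the Hox promoters, with a range from 4 to 45, and 7 in all 32851 promoters. At least 10 were found in 17 of 24 Hox promoters, or 70.8%, and in 43.5% of all promoters. The 250 bases before the start are shown for 5 genes, with CG in capitals: the posterior genes Hoxa13 and Hoxd13 with the most CG among the promoters of their clusters, Hoxb4 with the most among the 3 Hoxb promoters at hand, Hoxc4 as the single Hoxc gene matched, and Hoxa9, a gene of blood progenitors and leukaemia, with the fewest among those of Hoxa. CG content was not set against the marks, since no promoter was placed at a region. Hoxa13 and Hoxa9 lie on the minus strand of their chromosome and Hoxb4, Hoxc4 and Hoxd13 on the plus strand of theirs, and each sequence is written 5′ to 3′ along its gene. In the bases shown, CG was found 35 times in Hoxa13, 3 in Hoxa9, 14 in Hoxb4, 8 in Hoxc4 and 31 in Hoxd13.
Hoxa13: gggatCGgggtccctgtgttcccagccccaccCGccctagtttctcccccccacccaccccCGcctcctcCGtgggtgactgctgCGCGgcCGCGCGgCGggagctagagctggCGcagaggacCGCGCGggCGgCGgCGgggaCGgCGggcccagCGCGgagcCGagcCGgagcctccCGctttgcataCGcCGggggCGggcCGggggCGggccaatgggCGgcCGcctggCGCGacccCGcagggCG
Hoxa9: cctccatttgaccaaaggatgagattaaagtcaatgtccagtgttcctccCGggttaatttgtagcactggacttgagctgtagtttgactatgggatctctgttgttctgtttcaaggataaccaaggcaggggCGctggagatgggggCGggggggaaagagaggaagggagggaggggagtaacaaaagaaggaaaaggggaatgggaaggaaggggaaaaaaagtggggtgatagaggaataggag
Hoxb4: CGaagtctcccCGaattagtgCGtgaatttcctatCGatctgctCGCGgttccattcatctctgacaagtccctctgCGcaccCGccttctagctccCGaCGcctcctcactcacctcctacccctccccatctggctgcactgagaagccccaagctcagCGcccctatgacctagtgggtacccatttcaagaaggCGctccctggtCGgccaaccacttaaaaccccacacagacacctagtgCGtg
Hoxc4: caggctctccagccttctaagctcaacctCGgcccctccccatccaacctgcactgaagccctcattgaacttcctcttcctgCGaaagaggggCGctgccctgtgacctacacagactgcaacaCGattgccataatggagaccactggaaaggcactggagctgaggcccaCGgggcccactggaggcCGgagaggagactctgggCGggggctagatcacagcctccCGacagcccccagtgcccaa
Hoxd13: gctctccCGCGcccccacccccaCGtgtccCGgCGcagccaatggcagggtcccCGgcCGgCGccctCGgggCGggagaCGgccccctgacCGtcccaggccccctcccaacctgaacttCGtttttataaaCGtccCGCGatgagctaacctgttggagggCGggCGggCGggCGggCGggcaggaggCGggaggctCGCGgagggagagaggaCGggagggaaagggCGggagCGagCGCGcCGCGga

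In the female WT line H3K27me3 covered nearly the whole of the Hox clusters, 569 of 600 kb or 94.8%, where the list covers 10.5% of the span of all lists. It covered 100% of the Hoxa and Hoxc windows, 98.5% of Hoxb and 78.5% of Hoxd. The 200 kb on the low and high side of each window also held H3K27me3, so this cover was not limited to the windows. Cover there was 51.9% and 72.1% at Hoxa, 52.8% and 91.9% at Hoxb, 92.3% and 58.3% at Hoxc, and 25.8% and 50.9% at Hoxd. Hoxa lay in 1 region, chr6:52088601-52232600, of 144 kb and 6085 reads. Hoxc lay in 1 region, chr15:102555401-102922200, of 366.8 kb and 17226 reads, which ranked first of 30556 by length and by reads. It ran 184.6 kb beyond the Hoxc13 end of the window and 42.2 kb beyond the Hoxc4 end. Hoxb was held by 4 regions, led by chr11:96098801-96251200 with 152.4 kb and 6763 reads, the second of the list by reads, and by chr11:96004601-96079400 with 74.8 kb and 3201 reads. Between them lay a pair of short regions of 4.4 and 12 kb, at 95 and 290 reads. The Hoxd window was broken into 8 regions of 4 to 32.2 kb, the longest chr2:74558001-74590200 with 1421 reads. Thus Hoxa, Hoxb and Hoxc were near-continuous and Hoxd was not, with 8 stretches of its window free of H3K27me3 that added up to 28 kb, the longest of them 8.8 kb (chr2:74542601-74551400). None of these gaps held a region of any other list.

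**Figure D1:**
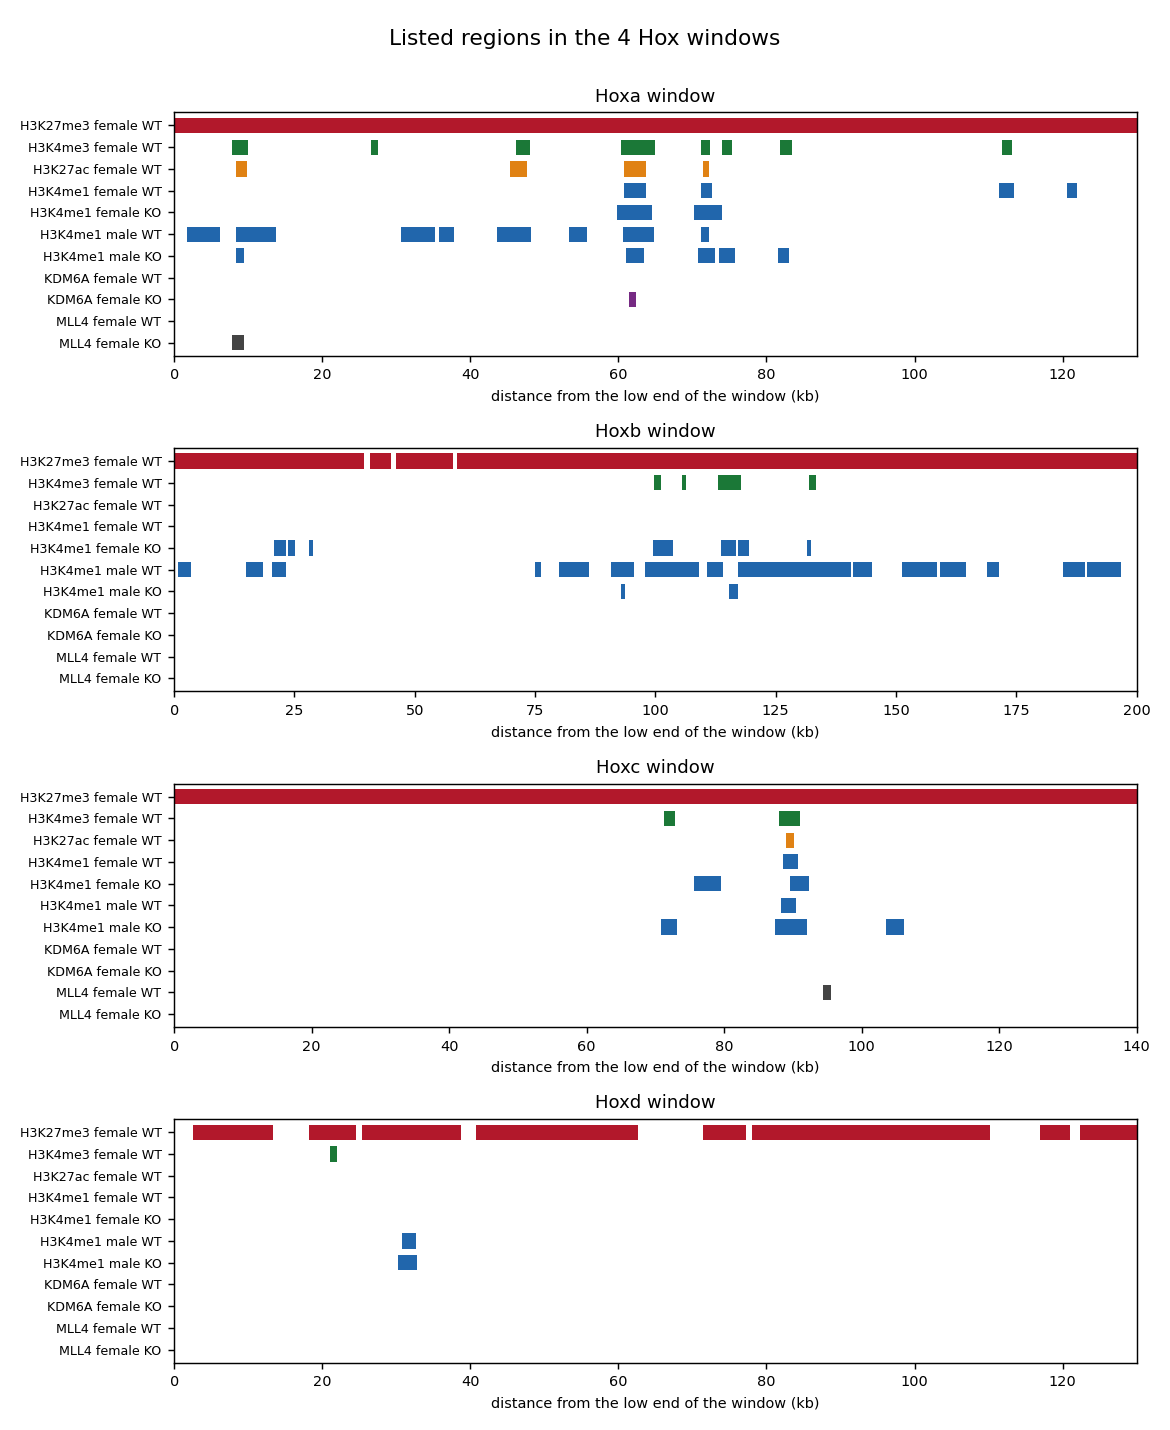
Listed regions in the 4 Hox windows, 1 row per list, by distance in kb from the low end of the window; each bar is 1 region, cut at the window ends. H3K27me3 fills Hoxa, Hoxc and most of Hoxb and is interrupted at Hoxd, and the active marks lie under it as short bars.

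H3K27me3 was also dense at the clusters. Read density is the reads of a region per kb of its length. It was 42.3 reads per kb over the listed bases of Hoxa, 42.3 for Hoxb, 47.0 for Hoxc and 34.6 for Hoxd, and the median region of the list had 21.5 with quartiles of 19.4 and 24.3. Of the 14 Hox regions, 13 lay above that median and 8 in the upper 10% of the list. The Hoxc region was at the 99.7th percentile and the Hoxa region at the 99.5th. The 4 Hoxb regions ran from 21.6 reads per kb in the shortest to 44.4 in the longest. The 8 Hoxd regions ran from 17.8 (chr2:74551401-74557200, at percentile 9.62 of the list) to 44.1 in the longest. Over the genome, 17119 tiles of 150 kb were scored for H3K27me3 cover, with a median of 0%. At least 50% was reached by 6.62% of the tiles and by 4 of 4 Hox windows. Cover as high as at Hoxa and Hoxc was found in 3 tiles, 2 of which touched a Hox window. Cover as high as at Hoxb was found in 5 tiles, and as high as at Hoxd in 251. The tiles lay on a fixed grid, while the windows of 130 to 200 kb were set on the clusters, so these counts do not compare like with like. The Hoxa region of 144 kb is shorter than a tile and could not have filled one.

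**Figure D2:**
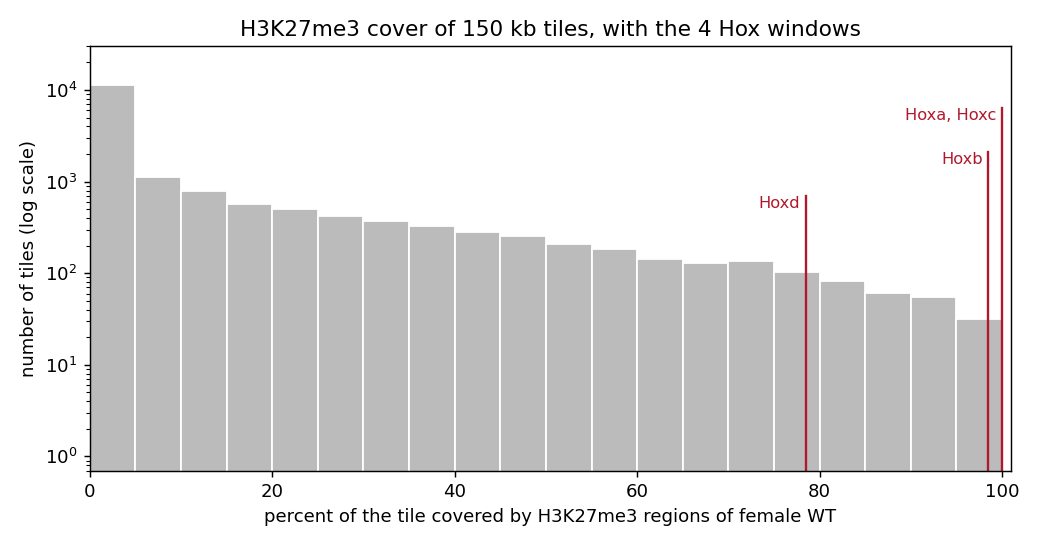
Number of 150 kb tiles (log scale) by percent of the tile covered by H3K27me3 regions of female WT, in steps of 5 percentage points, with vertical lines at the 4 Hox windows. Hoxa and Hoxc stand at 100%, Hoxb at 98.5% and Hoxd at 78.5%, against a tile median of 0%.

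The active marks of the same line all lay under H3K27me3 at the Hox clusters, and most of their regions were below the median read density of their lists. H3K4me3 took up more of the windows than of the genome, and H3K27ac and H3K4me1 less, although at Hoxa H3K27ac (5.69% of the window) was above its genome value too. H3K4me3 covered 29.2 kb of the windows, or 4.87% against 2.88% of the span, in 15 regions. It was listed in 8 regions over 15.2 kb of Hoxa, 4 over 8.4 kb of Hoxb, 2 over 4.6 kb of Hoxc and 1 of 1 kb at Hoxd. H3K27ac was listed in 4 regions at Hoxa and 1 at Hoxc, 8.6 kb in all (1.43% against 4.51% of the span), and in none at Hoxb and Hoxd. H3K4me1 was listed in 4 regions at Hoxa and 1 at Hoxc, 10 kb in all (1.67% against 8.90%). Each of the 15 H3K4me3, 5 H3K27ac and 5 H3K4me1 regions was wholly inside H3K27me3. In the whole lists 16.0% of H3K4me3, 7.44% of H3K27ac and 11.3% of H3K4me1 regions overlapped H3K27me3 at all. The windows themselves were 94.8% H3K27me3, so regions within them had little room to lie outside it, and they are not independent cases.

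The H3K4me3 regions of the Hox windows had a median of 44.4 reads per kb. The list median was 131, and that of its 3924 regions overlapped by H3K27me3 was 119. The strongest were both at Hoxa: chr6:52160401-52165000 with 821 reads over 4.6 kb and chr6:52171201-52172400 with 220 reads over 1.2 kb, at 178 and 183 reads per kb. The next by density was chr15:102828001-102831000 at Hoxc, with 394 reads over 3 kb, just over the list median. These 3 were the Hox regions above that median. At Hoxb the region with the most reads, chr11:96153001-96157800, had 293 over 4.8 kb, or 61.0 per kb, and at Hoxd chr2:74501001-74502000 had 66 reads. The other H3K4me3 regions held from 25 to 180 reads. None of the 5 H3K27ac regions reached its list median of 45 reads per kb; the strongest, chr6:52160801-52163800 at Hoxa, had 115 reads and 38.3 per kb. The 5 H3K4me1 regions of female WT were likewise below their list median of 35.5, led by the one at that same Hoxa site with 102 reads and 34 per kb.

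**Figure D3:**
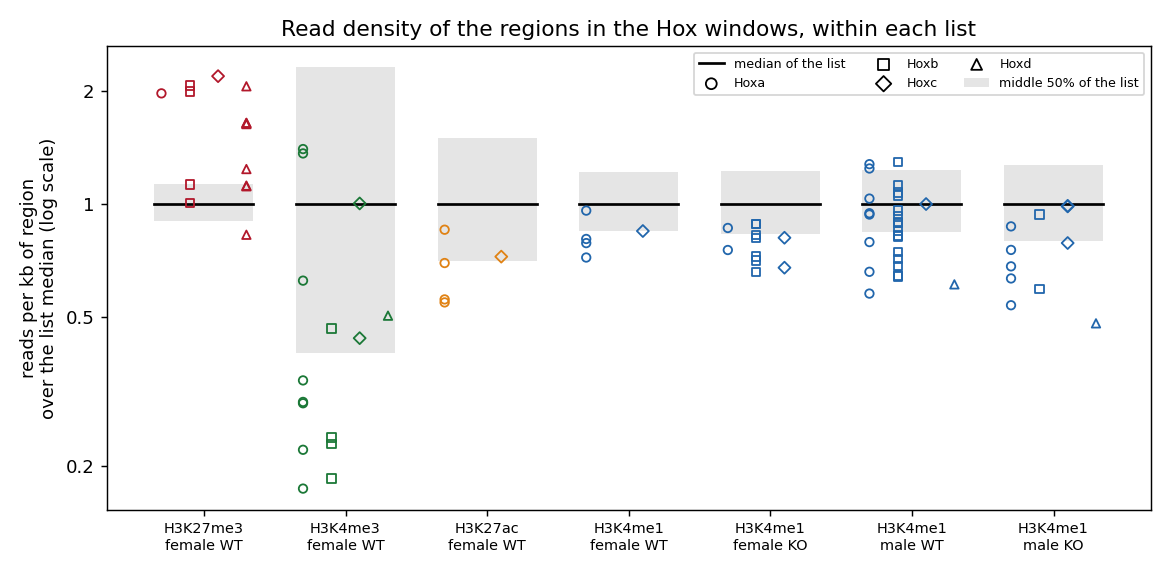
Reads per kb of each Hox region divided by the median of its own list (log scale), by list and cluster; the grey box spans the middle 50% of the list and the black line its median. H3K27me3 regions lie mostly above their box, and H3K27ac and the female H3K4me1 regions lie below their list medians.

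The borders of the Hox domains were looked for next, since a border separates silent from active chromatin. A border was an H3K27me3 edge with an edge of H3K4me3 or H3K27ac beyond it within 5 kb. Inside the windows 0 kb of H3K4me3 or H3K27ac lay outside H3K27me3. Of 21 H3K27me3 edges there, 1 met the definition, against 6.90% of all edges in the list. It was the low edge of chr2:74505401-74518800 at Hoxd, 3.4 kb from the H3K4me3 region named above, which itself lies within the neighbouring H3K27me3 region, so no H3K27me3-free active stretch stood between them. Outer edges were then taken after joining H3K27me3 regions within 5 kb, which gave domains of 308.2 kb at Hoxa, 246.6 kb at Hoxb and 424.6 kb at Hoxc, and 3 domains of 60, 38.8 and 65 kb at Hoxd. Active marks stood within 5 kb of 3 of the 8 outer edges. Of all edges of domains joined in this way, 9.04% had an active mark within 5 kb. That share left out edges with an active region across them and took every edge of every domain. The 8 were the outermost edges of each cluster, without that check, so the counts are not fully alike. More H3K27me3 lay past some of them. On the high side the joined domains ended 66.4 kb past the Hoxa window and 11.2 kb past the Hoxb window. In the 200 kb there, H3K27me3 covered 72.1% at Hoxa and 91.9% at Hoxb. An outer edge is thus where joining within 5 kb stopped, and need not be the limit of H3K27me3 around a cluster.

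The 3 near edges were at Hoxb, Hoxc and Hoxd. On the low side of Hoxc the domain began at 102555401 on chromosome 15. H3K27ac (chr15:102552001-102554800, 130 reads) ended 0.6 kb before it and H3K4me3 (chr15:102550201-102554200, 889 reads) 1.2 kb before it. H3K4me1 of female WT ended 0.4 kb and that of male KO 0 kb before this edge. The nearest H3K4me1 region ending before it was 30.2 kb away in female KO and 29.8 kb in male WT. In the 200 kb on the low side of the window, H3K4me1 also covered 5.8 kb in female KO and 9.2 kb in male WT. That H3K4me1 lay across or inside the edge, where regions were not searched, so these distances do not set the lines apart. On the high side of Hoxd, beyond the Hoxd1 end, the last domain ended at 74662000 on chromosome 2, 52 kb past the window, and H3K4me3 began 0.8 kb further, with 1095 reads at chr2:74662801-74665600. Beyond that edge, H3K4me1 began after 1 kb in female WT and 0.2 kb in female KO. In male WT and male KO it began after 20.8 kb and 780.6 kb. On the low side of Hoxb, an H3K27ac region of 45 reads (chr11:96001401-96002800) ended 1.8 kb before the domain. Beyond the other 5 edges, the nearest active region was 11.8 kb away at Hoxc (high side) and 23.8 kb at Hoxa (low side). It was 64.4 kb away at Hoxd (low side), 262.2 kb at Hoxa (high side) and 350 kb at Hoxb (high side).

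Most sites of the other marks were in 1 list, and a few were in many. Merging the 10 lists other than H3K27me3 gave 36 sites in the windows, of which 23 were in 1 list and 4 in at least 5 lists. The fullest site, chr6:52159801-52165000 in the middle of Hoxa, was in 7 lists: H3K4me3, H3K27ac, all 4 H3K4me1 lists and KDM6A of the female KO line. H3K4me1 there held 102 reads in female WT, 128 in female KO, 179 in male WT and 92 in male KO. Its neighbour chr6:52170201-52175800 and the Hoxc site chr15:102827401-102832400 were each in 6 lists, the 4 H3K4me1 lists with H3K4me3 and H3K27ac. At that Hoxc site H3K4me1 held 66 reads in female WT, 67 in female KO, 100 in male WT and 200 in male KO. The fourth, chr6:52107801-52113800 near the Hoxa2 end of Hoxa, had H3K4me3, H3K27ac, H3K4me1 of both male lines and MLL4 of female KO. H3K4me1 there held 232 reads in male WT and 30 in male KO. At Hoxd the one site in 2 lists was chr2:74510201-74512800, with 50 H3K4me1 reads in male WT and 55 in male KO.

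The binding lists asked where KDM6A and MLL4 stood at the clusters, and they held 0 or 1 region each in the 600 kb. The lists are short, covering 0.164% of the span for KDM6A of WT, 0.377% for KDM6A of KO, 0.137% for MLL4 of WT and 0.770% for MLL4 of KO. In the windows they covered 0%, 0.167%, 0.2% and 0.267%, and at 0 or 1 region each neither surplus nor lack can be read. KDM6A of female WT had 0 regions. KDM6A of female KO had 1 region of 31 reads, chr6:52161401-52162400, within the fullest Hoxa site. MLL4 of female KO had 1 region of 41 reads at Hoxa, chr6:52107801-52109400, and MLL4 of female WT had 1 of 38 reads at Hoxc, chr15:102834401-102835600. The Hoxc region overlapped H3K27me3 and no other list. All 3 lay inside H3K27me3, which overlaps 6.26% of the KDM6A regions of KO, 3.83% of the MLL4 regions of KO and 7.89% of those of WT. The KDM6A region of KO had 31.0 reads per kb against a list median of 28.9, and the MLL4 region of WT 31.7 against 30.7. The MLL4 region of KO had 25.6 against 30.8, at percentile 12.8 of its list. In KO, chromosome 6 held 17.4% of KDM6A regions and 16.2% of MLL4 regions on 5.70% of the span, and chromosome 15 held 24.3% of the MLL4 regions of WT on 3.90%. The part of this uneven spread in the 3 regions was not tested. In the 200 kb on the low side of Hoxa, MLL4 of KO covered 13.6 kb, or 6.80% against 0.770% of the span, and KDM6A of KO 4.4 kb, while both WT lists were at 0 kb. This was the fullest flank for MLL4 of KO, picked after the files were seen. MLL4 cover of KO was 2.1% on the low side of Hoxb, 2.5% on the high side of Hoxc and 0% in the remaining flanks. KDM6A of KO covered 2.2% on the low side of Hoxa and 1.4% on its high side. It also covered 1.1% on the high side of Hoxd, 0.8% on the low side of Hoxb and 0% elsewhere, against 0.377% of the span.

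H3K4me1 was compared between KO and WT within each sex, to see whether the genotype went with the enhancer mark at the clusters. By covered length, the female and the male lines went opposite ways at Hoxa and Hoxb and the same way at Hoxc. The female difference at Hoxa was 0.8 kb. Longer cover in KO than WT in the female lines with shorter cover in the male lines was found at 2 of 4 windows and in 10.7% of tiles of 150 kb with H3K4me1. Reads in a window are given as RPM, reads per 1000000 reads in all regions of the list, with exact Poisson 95% intervals over reads that cover counting error only. At Hoxb, H3K4me1 of female WT was listed at 0 reads and female KO at 61.2 [55.3 to 67.4] RPM, in 7 regions over 15 kb. Male WT held 284 [276 to 293] RPM there in 16 regions over 90 kb, and male KO 7.40 [5.87 to 9.21] in 2 regions over 2.6 kb. Male WT was the high line at Hoxb by listed reads and length. KO over WT of listed reads was 0.0260 [0.0206 to 0.0325] in the male lines. The listed regions differed less in density, with 45.5 reads per kb in male WT and 30.8 in male KO. These ratios are of sums over regions called separately in each line, so they move with how much was called, and signal outside the called regions is not known.

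At Hoxa, H3K4me1 stood at 23.3 [20.4 to 26.5] RPM in female WT, 36.8 [32.3 to 41.7] in female KO, 87.6 [82.9 to 92.6] in male WT and 26.5 [23.5 to 29.7] in male KO. KO over WT was 1.58 [1.31 to 1.90] in the female lines and 0.302 [0.265 to 0.344] in the male lines. The female lines listed nearly equal reads at Hoxa, 244 over 8.6 kb in KO and 232 over 7.8 kb in WT. All regions of those lists held 6639207 reads in KO and 9956349 in WT, so the female ratio comes mostly from these totals. At Hoxc, KO was higher in both sexes, with 27.4 against 6.63 RPM in the female lines and 36.4 against 6.94 in the male lines. Those ratios were 4.14 [3.10 to 5.57] and 5.25 [4.21 to 6.61], and they rest on 2 regions against 1 and 3 regions against 1. Scaled to the listed reads of the chromosome, the ratio at Hoxc was 7.58 in the female lines and 4.41 in the male lines. With the female lists cut to equal numbers of regions, an alternative chosen after seeing the data, the ratio at Hoxa was 3.21 and Hoxc had no WT region left. The intervals above do not cover such choices. At Hoxd neither female line had a region, and the male lines had 1 each, at 5.09 RPM in KO and 3.47 in WT, with a ratio interval of 0.982 to 2.20. By the same sums of listed reads, which are not fold changes of signal, KO was at least 2-fold above WT, or listed alone, at 2 of 4 windows in the female lines (Hoxb and Hoxc) and 1 in the male lines (Hoxc). It was at least 2-fold below at 0 and 2 (Hoxa and Hoxb). Over tiles of 150 kb with H3K4me1, scored in that way, KO was above in 22.4% of female and 24.2% of male tiles and below in 36.1% and 29.1%.

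**Figure D4:**
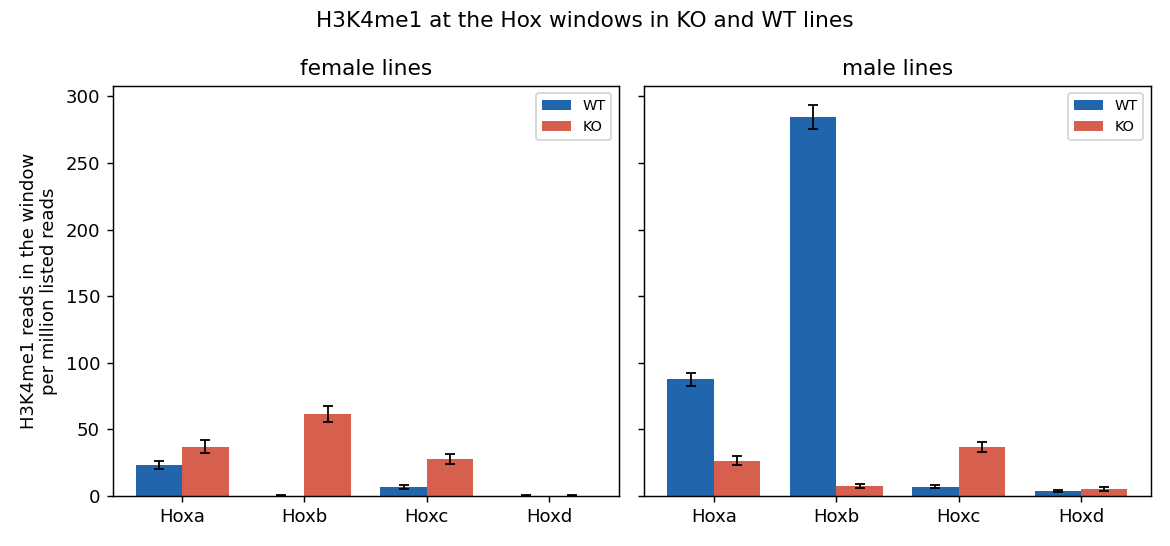
H3K4me1 reads in each Hox window as RPM of listed reads, WT in blue and KO in red, female lines left and male lines right; error bars are exact Poisson 95% intervals over reads of 1 library. Male WT at Hoxb stands at 284 and male KO at 7.40, while female WT is listed at 0 and female KO at 61.2.

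The male WT mark at Hoxb was the broadest H3K4me1 of any cluster and line, covering 45% of the window against 10.1% of the span. Of its 90 kb, 66.4 kb lay between the middle of the window and its Hoxb1 end, and 23.6 kb on the Hoxb13 side. The leading region was chr11:96157201-96180600, with 23.4 kb, 1377 reads and 58.8 reads per kb, at the 79.7th percentile of its list and without a counterpart in male KO. Next came chr11:96137801-96149000 with 536 reads, chr11:96191201-96198600 with 361, chr11:96229601-96236800 with 277 and chr11:96120001-96126200 with 271, none of them matched in male KO. Joined within 5 kb, the regions made a stretch of 70 kb, chr11:96115001-96185000, ranking 181 by length among 39176 such stretches. Of these 90 kb, 9.8 kb were also H3K4me1 in female KO, 0.8 kb in male KO and 5.2 kb H3K4me3 in female WT. All 90 kb lay inside H3K27me3 of the female WT line, but H3K27me3 was not listed for a male line, so the 2 marks were not seen here in the same cells.

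The male difference was not limited to the Hoxb window. In the 200 kb on its low side H3K4me1 covered 82.6 kb in male WT and 28 kb in male KO, and in the 200 kb on its high side 34.8 kb and 0 kb. Chromosome 11 as a whole held 0.795 times the share of listed H3K4me1 reads in male KO that it held in male WT. That value was 0.786 for chromosome 6 of Hoxa, 1.19 for chromosome 15 of Hoxc and 1.15 for chromosome 2 of Hoxd. At Hoxa, male WT covered 28.6 kb, 27.6 kb of it on the Hoxa2 side of the window's middle, and male KO 9.2 kb. The low-side flank of Hoxa had 42.2 kb in male WT and 4.2 kb in male KO. Among 1133 tiles at least 50% in H3K27me3, 16 had as much H3K4me1 of male WT as the Hoxb window, and the median of the 1133 was 5.6%. One of the 16 touched a Hox window.

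Most of the H3K4me1 regions that set the lines apart lay at Hoxb. In female KO, 8 of 11 Hox regions had no WT counterpart, where 23.4% of the list had none. All 7 at Hoxb were among them, led by chr11:96139601-96143600 with 117 reads, and so was chr15:102815601-102819600 at Hoxc with 115 reads. The next were chr11:96153601-96156800 with 82 reads, chr11:96060801-96063200 with 56 and chr11:96157201-96159400 with 55. In male WT, 20 of 26 had no KO counterpart, against 42.0%, and 15 of these were at Hoxb and 5 at Hoxa. In male KO, 5 of 11 had no WT counterpart, against 25.4%, led by the pair at Hoxc, chr15:102810801-102813200 with 104 reads and chr15:102843601-102846200 with 90. The remaining 3 held from 39 to 52 reads. In female WT, 2 of 5 had no KO counterpart, against 51.1%: chr6:52211401-52213400 with 51 reads and chr6:52220601-52222000 with 39, both on the Hoxa13 side of the middle of Hoxa. Neighbouring regions of a cluster are not independent, and the exact binomial interval of the shared part was wide, 6.02% to 61.0% for female KO and 8.97% to 43.6% for male WT. The list shares are over regions of all densities, while most of these Hox regions were below the median density of their lists. Shares over regions of like density were not taken.

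**Figure D5:**
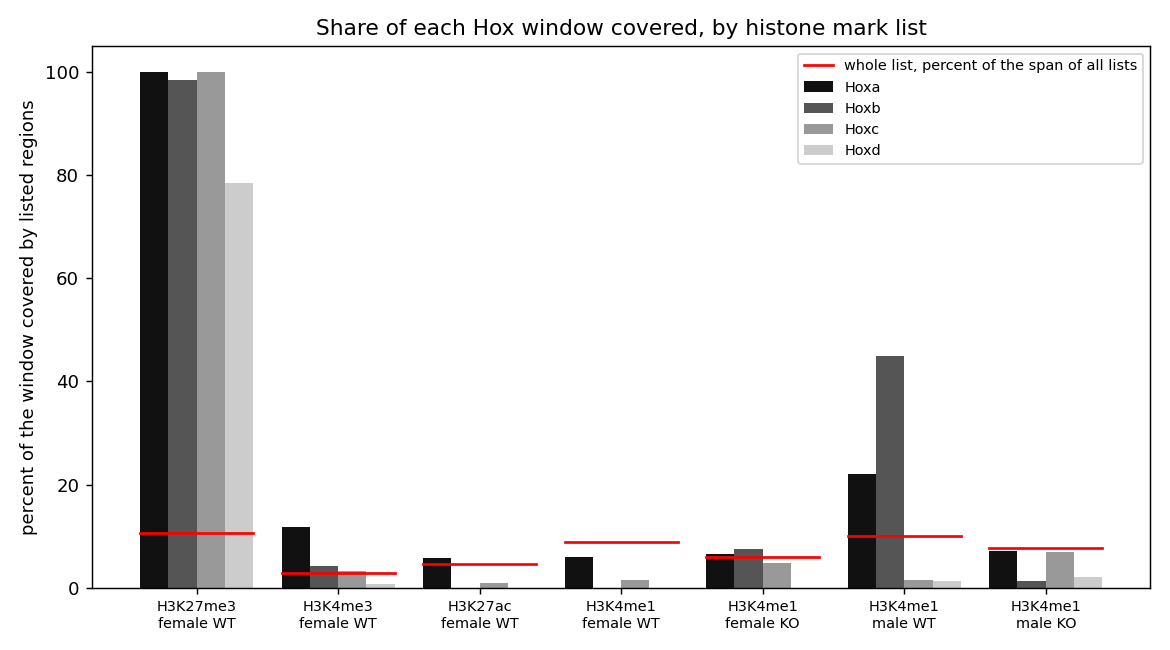
Percent of each Hox window covered by listed regions, by histone mark list, with a red line at the percent of the span of all lists that the whole list covers. H3K27me3 exceeds its line at all 4 clusters, H3K4me3 at Hoxa (11.7%), Hoxb (4.2%) and Hoxc (3.29%), H3K27ac at Hoxa (5.69%), H3K4me1 of female KO at Hoxa (6.62%) and Hoxb (7.5%), and H3K4me1 of male WT at Hoxa (22%) and Hoxb (45%).

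Few listed reads lie behind H3K4me1 in every line but male WT. Over the 4 windows female WT listed 298 reads and female KO 832, male WT 5512 and male KO 815. A region missing from a list may hold signal below the threshold of its caller, so 0 listed reads are not an absence of the mark. All female KO, female WT and male KO regions in the windows were below the median density of their lists, and 7 of the 26 male WT regions were above it. At the window ends, 6 regions crossed a border, 5 of them H3K27me3. The H3K4me1 region chr11:96038401-96040200 of male WT reached 0.2 kb into Hoxb, and the nearest ones outside were chr11:96028801-96035600 of male WT (257 reads, 4.4 kb away) and chr11:96033401-96034800 of female WT (60 reads, 5.2 kb away).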

How the data were processed

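ChIP-seq was carried out on 12 libraries, and 11 had a region list used here; the input library had none. The submitters' processing notes name Bowtie 1.1.2 and SICER 1 as tools, with no role, and mm9 as the build. Each deposited list has 3 columns of position and a whole number, read here as a count of reads from its values, since no header names it. The sources used here do not give the control, threshold, gap or library totals, so reads were compared between lists only as RPM, per 1000000 listed reads. The fewest reads of a region were 15 to 29 by list, and borders lay on 200 bp steps. Reads in the listed regions numbered from 108165 (MLL4 of WT) to 17526099 (H3K4me3), and intervals cover counting error only.

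Groups follow antibody, sex and genotype in the titles, with 1 library each and no test. Reads of a region crossing a window end were taken in proportion to its length inside, and overlap meant at least 1 bp. The members, windows and measures were chosen with earlier results of these data known. The rule for named regions took the region with the most reads per list and cluster, every KDM6A and MLL4 region, each border, and the 5 unshared H3K4me1 regions with the most reads per sex and direction. Sides of a window, flanks, merged sites and outer edges were added after the files were seen. Promoter sequences are RefSeq's for GRCm38.p6. The tools were Python 3.11.15, with scipy 1.17.1, numpy 2.4.6, pandas 2.3.3 and matplotlib 3.10.9, and the overlap steps were tested on simulated regions. Alternatives covered the window ends, list strength, overlap, joining, scaling and border distance.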

Additional observations from a re-analysis of the deposited data

Results flagged for a closer look

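H3K4me1 differed between KO and WT in opposite directions in the 2 sexes at Hoxa and Hoxb. KO minus WT in covered length was 0.8 kb in the female lines and -19.4 kb in the male lines at Hoxa, and 15 kb and -87.4 kb at Hoxb. The female lines were nearly equal at Hoxa, with 244 listed reads in KO and 232 in WT. With 1 library per line the difference between the sexes was not tested, and sex cannot be told apart from the line. Of 13401 tiles of 150 kb with H3K4me1, 10.7% were covered longer in KO in the female lines and shorter in KO in the male lines.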

How the results depend on the processing

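No paired analysis was possible because each group held 1 library and no result comes from a test. No KO over WT ratio crossed 1 under the alternatives that gave one. Outer edges, flanks, tiles, merged sites and sides of a window were not recomputed under alternatives. Percent of the windows covered by H3K27me3 was 93.9% in the upper part of the list by reads per kb, 70.2% with at least 50% of the region inside, which drops the long Hoxc region, and 96.2% with regions within 2 kb joined. In the upper part of each list the cover of H3K4me3 was 1.47%, of H3K4me1 in male WT 9.40%, and of H3K27ac and of H3K4me1 in female WT, female KO and male KO 0%. H3K27me3 density was 43.0 reads per kb with whole regions and 40.8 with at least 50% of the region inside. KO over WT for H3K4me1 over the 4 windows was 4.19 in the female lines. It was 3.49 with windows widened by 10 kb and 10.9 with the 2 lists cut to equal numbers of regions, both chosen after seeing the data. The value of 10.9 rests on the 1 female WT region left in the windows. In the male lines it was 0.197, and 0.242 scaled to the chromosome; at Hoxb that scaling gave 0.0327. The 1 border inside the windows became 0 at a distance of 1 kb, with H3K27ac alone, with joined regions and in the upper part of the lists, and 2 at 10 kb. The shared part of female WT regions was 60%, and with lists of equal number 100%, which is that 1 region; that of male WT was 23.1%, and 0% in the upper part. In the upper part no H3K4me1 region of the female lines or of male KO, and so no KO over WT ratio remained. The threshold behind each list limits all values at or near 0.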
